A study of Mus musculus with 4 samples.

Results

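The variable (V) and joining (J) segments of the T cell receptor alpha chain were measured by RNA-seq in regulatory T (Treg) cells. A total of 61 segments, 7 V and 54 J, were chosen as the rows named Trav or Traj with a mean of at least 1 RPKM (reads scaled by the length of the row and by the depth of the library) over the 4 libraries, of 14215 named genes with a row and 10704 at that level. There were 2 libraries from mice with an Nsd2 Treg conditional knockout (cKO), set against 2 from wild-type (WT) mice. All mice were C57BL/6, and the Treg cells came from spleen. Each library was made from RNA mixed from at least 3 mice, so p-values measure the spread between these pools, which may be technical. The labels do not state the promoter that drives the deletion, the deleted exons, the alleles that the WT mice carry or the age of the mice.

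In a developing T cell the Tra locus is cut and rejoined so that a V segment lies next to a J segment, and the joined exon is then spliced to the constant region Trac. The J segments between the chosen J and Trac stay in the primary transcript and are spliced out, and a cell can rejoin the locus again with an upstream V and a downstream J. A Treg population carries many different alpha chains, so V and J segments in bulk RNA report the mixture of rearranged chains together with any unspliced or unrearranged transcript. In bulk RNA, fewer cells that use a segment and less RNA per cell cannot be told apart.

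The knockout label was checked first. Nsd2, a histone methyltransferase listed under its older symbol Whsc1, had 3.46 and 4.27 RPKM in the cKO libraries, against 6.82 and 7.44 RPKM in the WT libraries, so the mean in cKO stood at 54.2% of that in WT. Foxp3, the transcription factor that defines Treg cells, had 145 and 113 RPKM in cKO, against 144 and 128 RPKM in WT, and all 6 Treg markers had a row. The markers of other cell types were low beside these. The summed level of the 2 CD8 T cell markers was 5.55 and 6.70 RPKM in cKO, against 7.06 and 6.74 RPKM in WT, and that of the 4 natural killer T (NKT) and mucosal-associated invariant T (MAIT) cell markers was 4.11 and 5.66 RPKM in cKO, against 2.89 and 4.50 RPKM in WT. The 3 of 6 B cell markers with a row summed to 11.7 and 10.8 RPKM in cKO, against 8.46 and 6.78 RPKM in WT. These were Cd79a, Cd79b and Cd22. The summed myeloid markers, 5 of 6 with a row, had 12.3 and 5.46 RPKM in cKO, against 5.60 and 7.84 RPKM in WT, and of 6 gamma delta T cell markers the 1 with a row, Cd163l1, was at most 0.136 RPKM.

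The sequences show what the J rows are. The germline J exons below are printed 5′ to 3′ on the plus strand of GRCm38, the assembly that mm10 names, and were read from GENCODE M21 transcripts. Capitals mark the first match to TTNGG, any 4 bases, then GG, or to TGGGG, any 4 bases, then GG. The patterns were drawn from the Phe-Gly-X-Gly codons that J segments share and from the form with Trp in place of Phe. Matches were sought by letters only, with the third letter of the first pattern left free. The reading frame was not checked, so a marked stretch need not be those codons. The first 3 had the highest levels, the next 3 had lower or higher levels in cKO with groups that did not overlap, and Traj18 and Traj33 belong to the invariant chains of NKT and MAIT cells. Traj36 and Traj1 are annotated as J pseudogenes and hold no match.
Traj27, chr14:54192303-54192361: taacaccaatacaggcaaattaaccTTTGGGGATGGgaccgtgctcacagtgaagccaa
Traj7, chr14:54211470-54211528: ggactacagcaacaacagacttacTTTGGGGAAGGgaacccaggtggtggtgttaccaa
Traj23, chr14:54196081-54196140: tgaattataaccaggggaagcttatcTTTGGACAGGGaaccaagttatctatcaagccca
Traj15, chr14:54204422-54204481: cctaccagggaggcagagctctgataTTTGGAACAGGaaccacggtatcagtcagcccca
Traj4, chr14:54216291-54216353: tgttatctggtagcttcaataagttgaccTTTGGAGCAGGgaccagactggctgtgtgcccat
Traj46, chr14:54172338-54172398: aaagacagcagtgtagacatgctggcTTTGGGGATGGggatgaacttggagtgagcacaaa
Traj18, chr14:54200777-54200842: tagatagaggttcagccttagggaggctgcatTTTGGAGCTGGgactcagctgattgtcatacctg
Traj33, chr14:54185358-54185414: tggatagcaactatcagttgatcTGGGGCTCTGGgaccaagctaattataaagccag
Traj36, chr14:54182402-54182464: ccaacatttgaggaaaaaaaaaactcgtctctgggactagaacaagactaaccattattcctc
Traj1, chr14:54218814-54218842: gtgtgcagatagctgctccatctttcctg

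A match to either pattern, called the motif below, was present in 45 of the 54 J segments. The first form was found in 44 (81.5%). The second was found in 3, Traj33, Traj38 and Traj46, and in Traj38 and Traj46 it overlaps a match to the first form. For comparison, the first form stood on the same strand in the first 60 bases of 1.46% of 141515 annotated transcripts and on either strand in 2.61%, and the second form on the same strand in 1.14% and on either strand in 1.93%. A stretch cannot match both forms from the same start, since they differ in the second letter. The 9 J segments with no match were Traj1, Traj3, Traj8, Traj14, Traj19, Traj20, Traj29, Traj36 and Traj41, of which Traj1, Traj8, Traj14 and Traj36 are the annotated pseudogenes. No pair of the 54 J segments shared a run of 25 bases, so reads that lie within a J segment can be told apart.

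For 6 of the 7 V rows, the length of the first exon gave whole reads and was taken as the row length. The values do not state row lengths, and a multiple of that length would also give whole reads. The first exon encodes the start of the leader peptide and not the V domain. The leader exons of 4 of them are printed below in pairs, because they are close copies, with the differing bases in capitals. The Trav9-2 and Trav9-4 exons differ at 1 of 46 bases (97.8% identity), and the Trav14-3 and Trav14n-3 exons at 4 of 52 bases (92.3% identity).
Trav9-2: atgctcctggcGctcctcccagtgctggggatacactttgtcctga
Trav9-4: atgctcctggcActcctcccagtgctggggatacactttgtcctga
Trav14-3: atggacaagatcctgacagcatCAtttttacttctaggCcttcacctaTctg
Trav14n-3: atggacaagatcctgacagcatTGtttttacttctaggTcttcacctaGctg
The 46 bases of Trav9-2 are the same as those of Trav9d-2, Trav9d-4, Trav9n-2 and Trav9n-4, so these bases alone cannot assign a read to 1 segment. Bases beyond the exon, which reads of 50 nt reach, were not compared, and values of these V rows are uncertain. The labels do not state how such reads were shared out or whether the counting used strand.

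The depth behind these values could be read from the J rows themselves. With the RefSeq length of each J, 98.1% of 216 J values lay within 0.1 of a whole number of reads, where chance gives 20%. The depths were 19228000 and 21267000 reads in cKO and 19515000 and 19150000 reads in WT. The depth of each library was fitted to the J values, so the share partly restates the fit. The share counts Traj22 at its RefSeq length of 60 bases, while 61 bases gave whole reads for it. On a row of 60 bases, 1 read was worth 0.867 and 0.784 RPKM in cKO, against 0.854 and 0.870 RPKM in WT. The J rows were 29 to 66 bases long, close to the read length, and the labels do not state how reads that cross an exon end were counted.

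J segments made up nearly all of the measured signal. The annotation lists 60 J and 130 V segments, of which 54 J and 7 V had a row, and all 61 passed the threshold. The lowest J means were 2.32 RPKM for Traj46, 2.59 RPKM for Traj36 and 2.81 RPKM for Traj58, and the lowest V means were 3.19 RPKM for Trav14n-3, 3.35 RPKM for Trav9-2 and 3.40 RPKM for Trav13-1, so no named V or J row lay just outside the threshold. Summed over the 54 J segments, the level was 720 and 710 RPKM in cKO, against 774 and 813 RPKM in WT. Summed over the 7 V segments, it was 31.4 and 27.8 RPKM in cKO, against 26.5 and 41.6 RPKM in WT. The median J segment had 10.5 and 11.5 RPKM in cKO, against 11.5 and 13.3 RPKM in WT, and the median V segment had 4.001 and 3.62 RPKM in cKO, against 3.94 and 4.54 RPKM in WT. J was above V in each of the 4 libraries by the median. Total reads over the 4 libraries ran from 11 to 205 per J segment (median 52.5) and from 12 to 176 per V segment (median 16). At least 10 reads in every library were present for 25 J segments and 1 V segment.

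The V rows were few and shallow apart from Trav12-4, a V pseudogene whose row covers all 243 bases of the annotated gene. Trav12-4 had 6.63 and 7.55 RPKM (31 and 39 reads) in cKO, against 10.5 and 12.03 RPKM (50 and 56 reads) in WT. Both cKO libraries were below both WT libraries, with a log2 fold change of −0.60 (SE 0.14) and an adjusted p of 0.9998 in limma, so it did not pass the threshold of 0.05. Trav9-4 had 3.39 and 2.04 RPKM in cKO, against 5.57 and 7.95 RPKM in WT, and its near copy Trav9-2 had 3.39 and 1.02 RPKM in cKO, against 4.46 and 4.54 RPKM in WT. Both V segments were lower in cKO without overlap, but on at most 7 reads in any library. Trav4-2 had 6.00 and 5.43 RPKM (6 reads each) in cKO, against 0 and 4.02 RPKM (0 and 4 reads) in WT. Trav13-1 had 5.001 and 3.62 RPKM in cKO, against 1.97 and 3.01 RPKM in WT. These 2 segments were higher in cKO without overlap. Trav14-3 had 3.0005 and 6.33 RPKM in cKO, against 0 and 7.03 RPKM in WT, and Trav14n-3 had 4.001 and 1.81 RPKM in cKO, against 3.94 and 3.01 RPKM in WT. Their groups overlapped. The 6 leader exon rows summed to 24.8 and 20.2 RPKM in cKO, against 15.9 and 29.6 RPKM in WT, again with overlap.

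**Figure D1:**
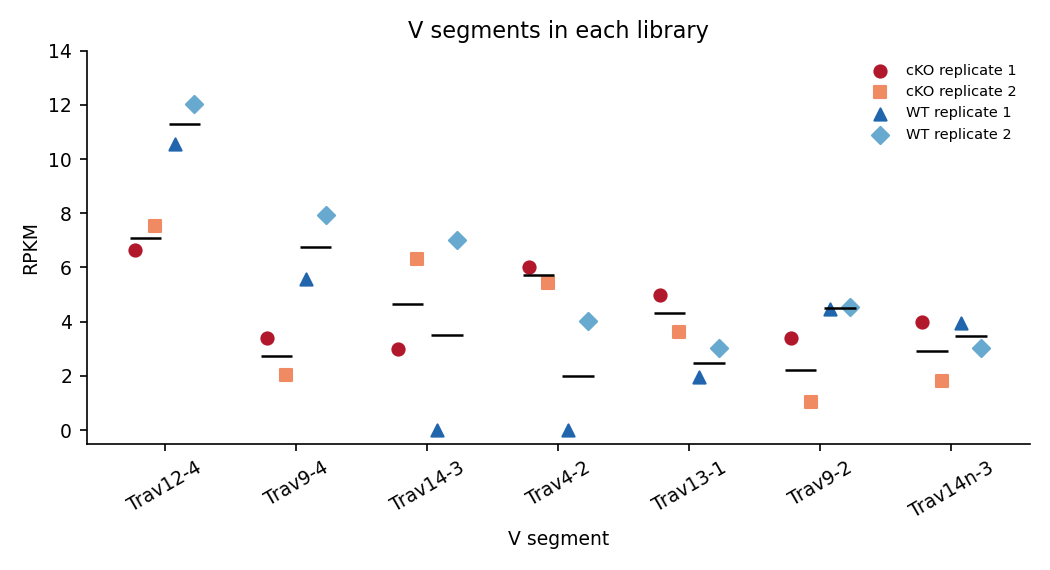
Level of the 7 V segments in each library (y axis, RPKM; x axis, V segment, in order of mean level), with cKO libraries left of WT libraries and a bar at each group mean. Only Trav12-4, between 6.63 and 12.03 RPKM, rests on 31 or more reads in every library.

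The J segments differed widely in level. Traj27 had 44.1 and 31.9 RPKM in cKO, against 46.9 and 54.0 RPKM in WT. Traj7 had 55.5 and 33.5 RPKM in cKO, against 45.2 and 33.6 RPKM in WT. Traj23 had 34.7 and 38.4 RPKM in cKO, against 26.5 and 50.5 RPKM in WT. The cKO and WT values of Traj7 and Traj23 overlapped, and those of Traj27 were lower in cKO without overlap. Next came Traj12 at a mean of 33.4 RPKM over the 4 libraries, Traj31 at 32.1 RPKM, Traj15 at 28.1 RPKM, Traj26 at 25.4 RPKM, Traj2 at 23.6 RPKM, Traj21 at 21.5 RPKM and Traj39 at 21.2 RPKM. Traj27 and Traj7, whose means over the 4 libraries were 44.2 and 42.0 RPKM, did not differ beyond the spread of Traj7 between the cKO libraries. The 5 highest J segments held 27.1% and 24.1% of the J RPKM in cKO, against 24.0% and 25.2% in WT, and the 10 highest held 42.1% and 39.6% in cKO, against 40.4% and 41.6% in WT.

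The level followed the position of the J segment along the locus. Traj58 lies on the V side and Traj1 next to the constant region, so the number falls towards the constant region. Spearman's rho between level and J number was −0.42 and −0.50 in cKO, against −0.55 and −0.49 in WT (n = 54 J segments in each library). The points share a library and a primary transcript, so they are not independent and no p is given. Row length and base composition moved less with level, with rho of −0.18 for length and 0.07 for GC content over the mean of the 4 libraries, where J number gave −0.55. In the 45 J segments with a motif match, which also have at least 50 bases, the rho with J number over the mean was −0.62.

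Split by number, the 18 J segments from Traj1 to Traj19 had a median level of 17.7 RPKM, the 19 from Traj20 to Traj38 had 11.9 RPKM and the 17 from Traj39 to Traj58 had 5.65 RPKM. In these parts 14 of 18, 9 of 19 and 4 of 17 segments were above the median of all J segments. The part next to the constant region held 41.6% (95% exact binomial interval 38.2% to 45.1%) and 41.7% (38.4% to 45.0%) of J reads in cKO, against 46.6% (43.3% to 49.96%) and 42.7% (39.5% to 46.02%) in WT. The middle part held 38.8% and 40.7% in cKO, against 37.5% and 37.1% in WT. The part on the V side held 19.6% and 17.7% in cKO, against 15.9% and 20.2% in WT. The groups overlapped for the V side, and for the other 2 parts they did not, while the counting intervals of single libraries overlapped. These intervals cover counting error only.

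**Figure D2:**
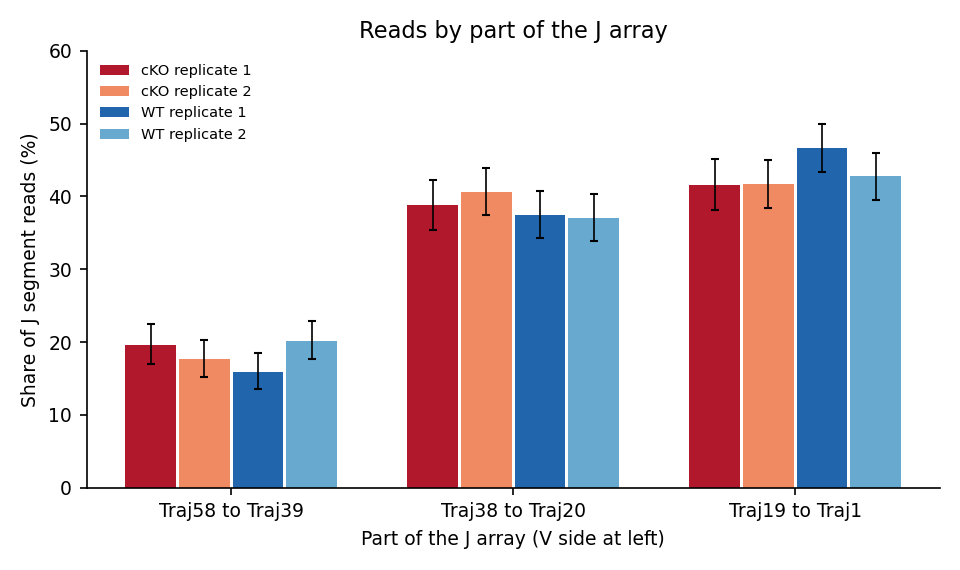
Share of J reads (y axis, percent) in 3 parts of the J array (x axis, V side at left), with cKO bars left of WT bars and 95% exact binomial intervals as error bars. The part next to the constant region held 41.6% and 41.7% in cKO, against 46.6% and 42.7% in WT.

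The ends of the array show the spread behind this trend. At the V side, Traj58 had 3.30 and 2.24 RPKM in cKO, against 5.69 and 0 RPKM in WT, Traj57 had 11.6 and 5.22 RPKM in cKO, against 8.95 and 8.29 RPKM in WT, and Traj56 had 14.03 and 5.22 RPKM in cKO, against 4.88 and 7.46 RPKM in WT. Traj53 had 5.52 and 2.85 RPKM in cKO, against 4.66 and 3.96 RPKM in WT, and Traj52 had 4.73 and 2.14 RPKM in cKO, against 4.66 and 7.91 RPKM in WT. The groups of these 5 segments overlapped. Next to the constant region, Traj2 had 19.7 and 20.7 RPKM in cKO, against 25.6 and 28.5 RPKM in WT, Traj3 had 14.2 and 19.9 RPKM in cKO, against 7.76 and 21.4 RPKM in WT, and Traj5 had 3.36 and 10.6 RPKM in cKO, against 12.4 and 12.6 RPKM in WT. Traj1 had 30.5 and 3.24 RPKM in cKO, against 30.04 and 12.6 RPKM in WT, from 17 and 2 reads in cKO, against 17 and 7 reads in WT. Both libraries numbered 1 were high and both numbered 2 were low for Traj1, whose row of 29 bases is the shortest among the J rows. The summed level of the 3 erythroid markers with a row was likewise higher in the libraries numbered 1, with 20.8 and 3.87 RPKM in cKO, against 11.5 and 5.47 RPKM in WT, and its part in the Traj1 values was not tested.

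**Figure D3:**
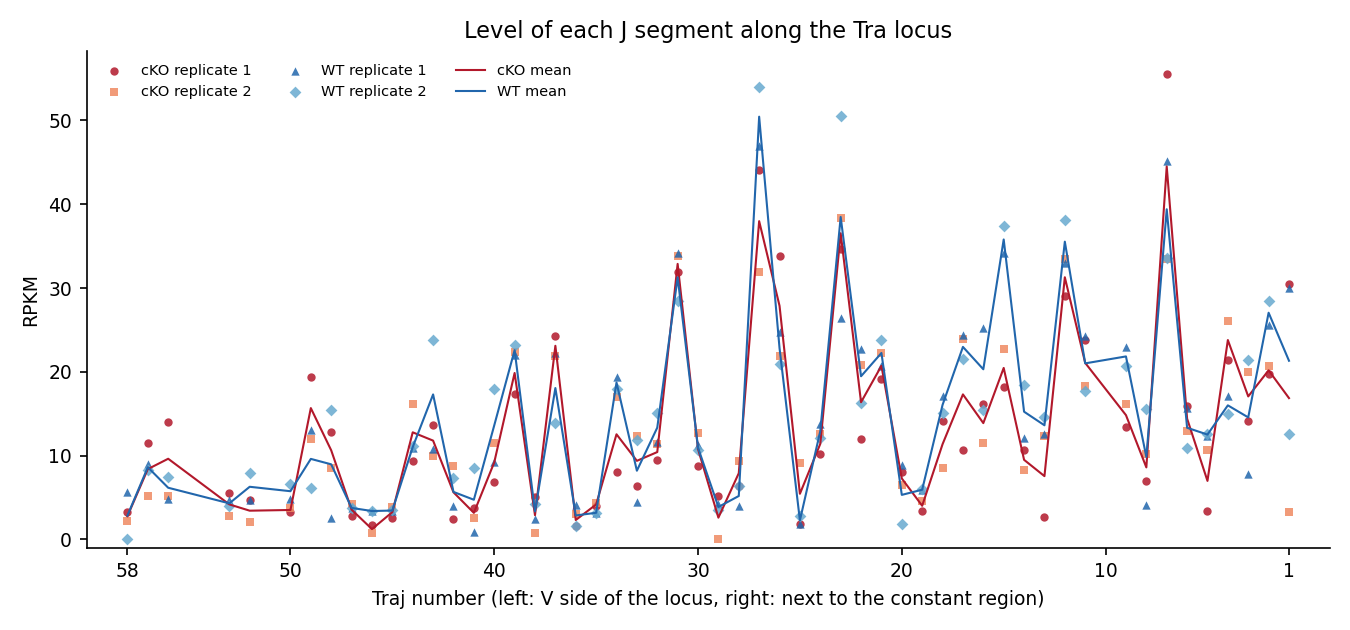
Level of each J segment (y axis, RPKM) in order along the locus (x axis, Traj number, V side at left), with each library as a point and the cKO and WT means as lines. The highest points are those of Traj27, Traj7 and Traj23, and both mean lines lie higher in the right part than at the V side.

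J segments without the motif had a lower median level. It was 6.30 RPKM for the 9 segments without a match and 12.2 RPKM for the 45 with one. By annotation, the 4 pseudogenes had a median of 10.8 RPKM and the other 50 J segments 11.9 RPKM. Traj36, the lowest of the pseudogenes, had 1.65 and 2.99 RPKM in cKO, against 4.07 and 1.66 RPKM in WT. The groups overlapped, and no library had above 5 reads.

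Between genotypes, limma on log2(RPKM + 1) called 0 of 10704 genes at an adjusted p under 0.05 (0%), and so 0 of the 61 segments. At an unadjusted p under 0.05 there were 334 genes (3.12%), including 11 of the 61 segments, 3 V and 8 J. The lowest adjusted p among the 61 segments was 0.9998 in limma. Leaving out 1 library leaves a group of 1, which is then assumed to vary like the other group. Calls from such fits are not read as differences between genotypes, since 1 group then has no spread of its own. In these fits the median log2 fold change ran from −0.26 to −0.06 for J segments and from −0.57 to 0.17 for V segments.

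The cKO and WT groups did not overlap for 20 of the 61 segments, where 26.4% of all genes did not. Of these, 4 were higher in cKO, where 17.4% of all genes were, and 16 were lower, where 9.06% were. Among J segments, 2 of 54 were higher in cKO and 13 were lower. Among V segments, 2 of 7 were higher and 3 were lower. The median log2 fold change was −0.14 for J segments and −0.25 for V segments, and 0.03 for all genes tested, and it was positive for 19 of 54 J segments, 3 of 7 V segments and 59.2% of all genes. The ratio of cKO to WT mean level was above 1 for 17 J segments and below 1 for 37, ran from 0.365 to 2.40, and was within 2-fold for 52 of 54. J segments also spread more between libraries of a group than other genes in the same range of RPKM. The median difference between the replicates was 0.47 in cKO and 0.36 in WT on the log2 scale, against 0.19 in cKO and 0.17 in WT for 8156 other genes. These genes were matched on RPKM and not on reads. The short J rows had a median of 11.5 and 15 reads in cKO, against 13 and 13 reads in WT. The part of counting error in the wider J spread was not tested.

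Traj15 had the lowest unadjusted p of the 61 segments. It had 18.2 and 22.7 RPKM (21 and 29 reads) in cKO, against 34.2 and 37.4 RPKM (40 and 43 reads) in WT, so both cKO libraries were below both WT libraries. Its log2 fold change was −0.78 (SE 0.15), and it did not pass the threshold in limma (adjusted p = 0.9998). Traj46, the lowest J segment by mean, had 1.71 and 0.771 RPKM in cKO, against 3.36 and 3.42 RPKM in WT, on at most 4 reads. Traj9 had 13.5 and 16.2 RPKM in cKO, against 23.0 and 20.7 RPKM in WT, and Traj50 had 3.30 and 3.73 RPKM in cKO, against 4.88 and 6.63 RPKM in WT. In these 3 segments too the cKO libraries were the lower ones. Of the 2 J segments that were higher in cKO without overlap, Traj4 had 21.5 and 26.1 RPKM in cKO, against 17.1 and 14.9 RPKM in WT (log2 fold change 0.54, SE 0.15), and Traj35 had 4.001 and 4.34 RPKM in cKO, against 3.15 and 3.21 RPKM in WT (log2 fold change 0.30, SE 0.14).

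**Figure D4:**
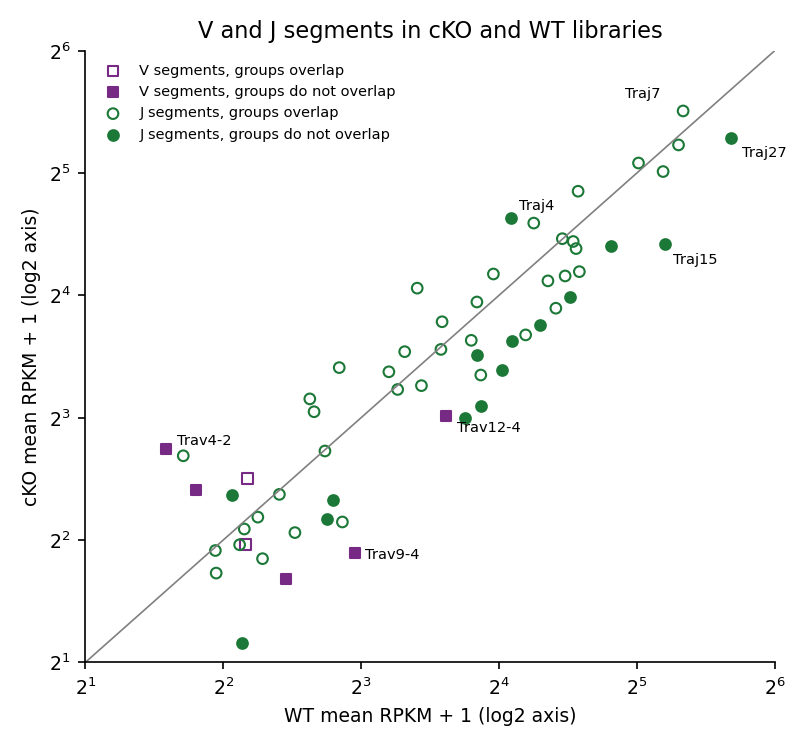
Mean level in cKO (y axis) against WT (x axis) of the 54 J and 7 V segments, as RPKM + 1 on log2 axes, with filled symbols for segments whose groups do not overlap and the line of equal level. Filled symbols lie below the line for 13 J and 3 V segments and above it for 2 J and 2 V segments.

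The J segments of the invariant chains were not among the 10 highest. Traj18, which joins Trav11 in the NKT cell receptor, had 14.2 and 8.55 RPKM in cKO, against 17.1 and 15.03 RPKM in WT, and was lower in cKO without overlap. Traj33, which joins Trav1 in the MAIT cell receptor, had 6.39 and 12.4 RPKM in cKO, against 4.49 and 11.9 RPKM in WT, and its groups overlapped. Trav11, Trav11d and Trav1 were not analysed here, so these J levels cannot be assigned to invariant chains.

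Over the whole array the J level was 90.1% of that in WT. The J sums of 715 ± 7.60 RPKM in cKO and 793 ± 27.2 RPKM in WT (SD, n = 2 each) did not overlap, and the log2 ratio was −0.15. In reads, there were 42.1 (95% Poisson interval 39.3 to 45.1) and 42.3 (39.6 to 45.2) J reads per 1000000 reads in cKO, against 45.4 (42.5 to 48.5) and 47.9 (44.8 to 51.1) in WT. The interval of each cKO library overlapped that of each WT library. These intervals are for single libraries and cover counting error only, and none was computed for a genotype. Trac, the constant region that the joined exon is spliced to, had 36.8 and 35.4 RPKM in cKO, against 35.4 and 37.6 RPKM in WT, and overlapped. The J sum over Trac was 19.6 and 20.03 in cKO, against 21.9 and 21.6 in WT. J rows may also hold RNA that is not spliced to Trac, so this ratio is not a level per alpha chain. For the 14 J segments of the beta chain, the sum was 2055 and 1828 RPKM in cKO, against 2144 and 1937 RPKM in WT, with overlap. The summed B cell markers given above were higher in cKO without overlap, and their part in the lower J sum was not tested.

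The spread of J reads was compared within and between genotypes. The chi-square of J reads between the 2 cKO libraries was 1.98 times its degrees of freedom, and that between the 2 WT libraries 1.71 times, where counting alone gives a ratio near 1. Between genotypes it was 1.40 for cKO and WT replicate 1 and 1.40 for cKO and WT replicate 2. It was 1.99 for cKO replicate 1 and WT replicate 2, and 1.60 for cKO replicate 2 and WT replicate 1. The between-genotype ratios thus ran from 1.40 to 1.99.

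The genes that assemble and accompany the alpha chain were read from the same fit. Of 20 such genes, 15 were tested, 0 passed the threshold in limma (adjusted p = 0.9998 at the lowest, 1 at an unadjusted p under 0.05), and their median log2 fold change was 0.01. Trbc1, a beta chain constant region, had 79.1 and 114 RPKM in cKO, against 68.0 and 65.3 RPKM in WT. Trbc2, the other one, had 116 and 118.4 RPKM in cKO, against 126 and 118.5 RPKM in WT. The CD3 signalling chain Cd247 had 104 and 106 RPKM in cKO, against 102 and 102 RPKM in WT. These 3 did not overlap. Ptcra, the partner of the beta chain before the alpha chain is made, and Dntt, the enzyme that adds bases at the joins, were below 1 RPKM in all 4 libraries.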

How the data were processed

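RNA-seq was run as single-end reads of 50 nt on 4 libraries of splenic Treg cells, grouped and numbered as the labels give them. RPKM values per transcript are what the authors deposited, and since no header names the unit it was read from the values. The submitters' processing notes list HISAT2, DESeq2 and mm10 without version or role. Of 19291 rows, 1169 had no gene name (10.9% of the RPKM) and were left out.

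For each name the row of highest mean was used, and each of the 61 names had 1 row. Reads were recovered with RefSeq lengths (GRCm38.p6) for Trav12-4 and 53 J rows, with 61 bases for Traj22, the length that gave whole reads, and with the first GENCODE M21 exon for the other 6 V rows. Genotypes were compared with limma 3.58.1 in R 4.3.3, two-sided, on log2(RPKM + 1). The model had genotype as its single term, with moderation by trend and robust, and p was adjusted by Benjamini-Hochberg over all 10704 genes at 0.05. Changes of low segments are understated on this scale. The script was tested on simulated data with the same spread for every gene and no counting error, so the test does not cover rows of few reads. Python 3.11.15, pandas 2.3.3 and matplotlib 3.10.9 were used. Alternatives changed the pseudocount, the filter, the scaling, the moderation, the row per name, the replicate block and the libraries.

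The members, gene lists and rules were chosen with earlier results of these data known. Segments named were the 10 highest V and J by mean, up to 5 V and 5 J per direction with separated groups and lowest unadjusted p, those of invariant chains, the 5 lowest and highest J numbers, and the lowest means.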

Additional observations from a re-analysis of the deposited data

How the results depend on the processing

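The planned changes of pseudocount, scaling, moderation and row per name called 0 genes and 0 segments. Adding the replicate number as a block called 1 gene and 0 segments, with a lowest adjusted p of 0.0623 among the segments in limma. The block raised the number of genes at an unadjusted p under 0.05 in limma from 334 to 1640. The labels do not state whether the numbers pair the libraries. The differences between numbers 1 and 2 correlated between the genotypes with 0.50 over all genes and 0.18 over J segments. Libraries of the same number thus shared part of their differences over all genes, but there are 2 pairs only. Calls from fits with 1 library left out are listed as a record of the settings only and are not read as differences between genotypes. Leaving out 1 library in turn leaves 1 library in a group, assumed to vary like the other group. It called 29 to 68 genes and 5 to 10 segments, among them Trav9-4 and Traj46 without cKO replicate 1, Traj15 without cKO replicate 2, Trav9-4 and Traj46 without WT replicate 1 and Trav4-2 without WT replicate 2, and it left 38 to 45 segments without overlap (62.3% to 73.8%, where 55.4% to 69.8% of all genes did not overlap), and gave a median log2 fold change of −0.57 to 0.17 for V segments, the positive value without cKO replicate 2. The V sum, with a log2 ratio of −0.20, was 0.16 without WT replicate 2. With a mean of at least 5 RPKM required, 41 segments remained tested, 12 did not overlap, the V median was −0.60 and rho between J level and number was −0.35; fewer segments entered. The J median stayed below 0 in all settings run, from −0.26 to −0.06. Depth limits V rows most, since 6 of 7 have under 10 reads in every library at the row length taken.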

Other observations

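Trdj1, a delta chain J segment within the same locus, had 1.02 and 4.61 RPKM in cKO, against 4.02 and 2.05 RPKM in WT. The gamma chain J segment Trgj1 had 1.73 and 7.84 RPKM in cKO, against 0.854 and 1.74 RPKM in WT, and Trgj4 had 5.97 and 6.94 RPKM in cKO, against 3.36 and 4.28 RPKM in WT. The groups overlapped for Trdj1 and Trgj1 and did not for Trgj4, where 26.4% of all genes did not overlap. Reads were not recovered for these rows. On a row of 60 bases 1 read was worth 0.784 to 0.870 RPKM, so such values may rest on few reads.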
